A study of Mus musculus with 12 samples.

Results

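Eph receptors and ephrins are cell-surface proteins through which neighbouring cells signal on contact. Eph receptors are receptor tyrosine kinases. Ephrins are their membrane-bound ligands, the A type held by a lipid anchor and the B type crossing the membrane, and the ligand-bearing cell can signal in return. A-type receptors bind mainly ephrin-A ligands and B-type receptors mainly ephrin-B ligands, with Epha4 known to bind both kinds. The family is known for repelling or sorting cells at tissue boundaries, in germ layer and vessel formation and in axon guidance. Pluripotent mouse cells are known to express Epha2.

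The genes described here are 4 A-type receptors (Epha1, Epha2, Epha4 and Epha7), 3 B-type receptors (Ephb2, Ephb3 and Ephb4), 1 ephrin-A ligand (Efna1) and 2 ephrin-B ligands (Efnb1 and Efnb2). They are 10 of the 55487 genes in the count table and 10 of the 22 family genes in it. They were chosen by the day 0 level of Epha4, which differed between genotypes, and are listed members of its family. The day 0 genotype difference is therefore given as a description with no test for any of the 10. Epha4 is also left without a test between days, since those comparisons use the same day 0 libraries. Comparisons of the other genes between days, and all genotype comparisons at day 7, are tested.

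RNA-seq of polyA RNA was made from female embryonic stem (ES) cells of a C57BL6/CAST hybrid, in which the maternal and paternal chromosomes can be told apart at sites where the parent strains differ. There were 4 groups of 3 libraries. They were wild type (WT) at day 0, SIRT7-KO (knockout of Sirt7, a sirtuin deacylase) at day 0, WT at day 7 and SIRT7-KO at day 7. Day 0 cells had been kept with LIF, a cytokine that holds mouse ES cells undifferentiated, and day 7 cells were taken 7 days after LIF was withdrawn. The labels name no clone, passage or culture, and nothing in them says that replicates were separate cultures, so p-values measure the spread between these libraries, which may be technical. A treatment entry (LIF or None) followed the replicate number, in opposite ways in WT and knockout, and not the day, and was not used.

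Library totals ran from 25190483 to 69079368 counts. The Sirt7 gene was not lower in the libraries labelled knockout. Its level in counts scaled to the library size (CPM, on library sizes scaled by edgeR's TMM method) was 8.03 to 12.7 in WT and 16.9 to 23.8 in knockout at day 0, and 10.2 to 15.3 against 20.1 to 25.1 at day 7, and neither difference was called (adjusted p of edgeR's quasi-likelihood test 0.182 and 0.299). Gene counts do not show which part of Sirt7 was changed, so they do not check the labels, and every genotype direction below is that of the libraries as labelled. The 8 naive pluripotency markers summed to 6482 to 7018 CPM in the day 0 libraries and to 370 to 408 CPM at day 7. Of the 8, 7 fell in each genotype. Tbx3 did not, with means of 169.5 and then 172.0 CPM in WT and 170.5 and then 174.1 CPM in knockout. At day 0 the sums overlapped between genotypes, while Esrrb averaged 43.8 CPM in WT and 231 CPM in knockout.

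Day 7 libraries also held markers of several differentiated cell types. Such markers changed between the same days as the genes described below, some up and some down. Of 8 mesoderm markers 7 rose in each genotype, and their sum was 6.31 to 10.5 CPM at day 0 and 2002 to 2541 CPM at day 7, most of the latter Hand1. Of 8 feeder fibroblast markers 7 rose and 1 fell, with sums of 22.01 to 31.1 CPM at day 0, when Col3a1 and Dcn were at 0, and 1101 to 1569 CPM at day 7. Of 8 endothelial markers 6 rose, with sums of 52.1 to 77.7 and then 213 to 252 CPM, while Emcn was at 0 in all 12 libraries. Of 8 trophoblast markers 5 rose and 2 fell, with sums of 90.3 to 112 and then 4023 to 5317 CPM, carried at day 7 by the keratins Krt8 and Krt18. Elf5 was at 0 in every group but knockout day 7, where its mean was 0.0388 CPM. Of 8 primitive and visceral endoderm markers 5 rose and 1 fell, with sums of 9.88 to 13.2 and then 134 to 151 CPM and with Afp at 0 throughout. Of 8 neural markers 5 were tested, of which none rose and 4 fell. Their sums were 353 to 440 and then 68.2 to 88.6 CPM, most of it Tubb3 on both days, and Olig2 was at 0 in both day 7 groups. The part of these cell types in the changes of Eph and ephrin genes was not tested. In bulk RNA, fewer cells of a type and less RNA per cell cannot be told apart.

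The sequences upstream of 4 of the genes are shown because these genes mark the patterns reported below: the gene that fell over 7 days (Epha2), the gene that led to the family (Epha4), the gene with a pair of start sites (Efna1) and the X-linked gene (Efnb1). Each is the 250 bases before a RefSeq start in GRCm38.p6, read 5′ to 3′ on the gene's strand. Capitals mark a GC box (GGGCGG, or CCGCCC on the other strand) or a nuclear receptor half-site (AGGTCA, or TGACCT on the other strand). The coordinates are chr4:141300971-141301220 on the plus strand for Epha2, chr1:77515089-77515338 on the minus strand for Epha4, chr3:89280952-89281201 and chr3:89279646-89279895 on the minus strand for the upstream and downstream starts of Efna1, and chrX:99135811-99136060 on the plus strand for Efnb1.
Epha2: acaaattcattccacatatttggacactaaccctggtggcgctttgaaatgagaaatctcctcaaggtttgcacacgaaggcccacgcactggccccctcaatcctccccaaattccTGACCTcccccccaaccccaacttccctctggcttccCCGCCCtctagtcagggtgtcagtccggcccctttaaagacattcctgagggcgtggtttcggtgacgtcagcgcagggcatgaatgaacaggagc
Epha4: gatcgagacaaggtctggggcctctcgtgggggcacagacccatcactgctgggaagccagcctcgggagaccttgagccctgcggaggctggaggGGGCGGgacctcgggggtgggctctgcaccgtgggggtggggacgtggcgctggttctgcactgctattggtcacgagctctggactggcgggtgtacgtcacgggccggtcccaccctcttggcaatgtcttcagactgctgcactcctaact
Efna1, upstream start: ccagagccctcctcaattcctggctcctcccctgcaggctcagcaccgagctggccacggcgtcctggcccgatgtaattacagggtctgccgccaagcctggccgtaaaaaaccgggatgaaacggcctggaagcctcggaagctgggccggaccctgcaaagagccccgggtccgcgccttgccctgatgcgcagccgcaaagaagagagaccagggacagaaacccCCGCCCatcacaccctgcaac
Efna1, downstream start: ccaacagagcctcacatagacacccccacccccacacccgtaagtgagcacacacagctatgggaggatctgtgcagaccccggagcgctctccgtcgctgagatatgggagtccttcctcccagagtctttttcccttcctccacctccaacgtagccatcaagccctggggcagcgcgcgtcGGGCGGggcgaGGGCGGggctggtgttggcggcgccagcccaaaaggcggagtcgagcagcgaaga
Efnb1: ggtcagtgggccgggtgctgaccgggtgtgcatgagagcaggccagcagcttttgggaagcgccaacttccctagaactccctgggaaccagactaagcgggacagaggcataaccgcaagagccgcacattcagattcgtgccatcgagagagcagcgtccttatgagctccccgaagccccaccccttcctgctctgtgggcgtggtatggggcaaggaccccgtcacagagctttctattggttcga
All 10 genes had an entry among the RefSeq promoters, 12 windows in all because Efna1 and Epha7 have 2 each, and the Epha7 windows overlap. A GC box lay in 10 of the 12 windows, against 32.7% of all 32851 promoter windows of this length, and Efnb1 and Ephb2 were the genes without one. The E box (CANNTG, the same on both strands) lay in 5 of 12, against 66.2% of all windows. The half-site lay in 1 of 12, that of Epha2, against 14.02%, and TATAAA (or TTTATA) lay in 1, that of Efnb2, against 12.4%. CG dinucleotides numbered 9 to 27 per window, against a median of 6 over all windows. Overlapping matches were not excluded, and a match describes letters and not a bound site.

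Among the A-type receptors, Epha2 was the only gene of the 9 tested that fell after LIF withdrawal, while Epha1 and Epha7 rose from low levels. Epha2, the receptor at the highest level in the undifferentiated cells, measured 141, 151 and 151 CPM in the 3 WT libraries at day 0 and 79.7, 91.0 and 81.0 CPM at day 7. Its knockout libraries measured 191, 157 and 149 CPM at day 0 and 98.6, 87.7 and 93.2 CPM at day 7. Every day 7 library lay below every day 0 library. The fall was 0.82 on the log2 scale in WT (SE 0.10, edgeR adjusted p 2.45e-05), a decrease of 1.76-fold, and 0.83 in knockout (SE 0.10, adjusted p 2.16e-05).

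Epha1, the founding member of the receptor family, measured 1.36, 1.25 and 0.730 CPM in WT at day 0 and 22.6, 19.4 and 20.2 CPM at day 7. In knockout it measured 2.11, 0.833 and 2.22 CPM and then 18.5, 18.4 and 16.2 CPM. It rose 18.6-fold in WT (log2 change 4.21, SE 0.34, edgeR adjusted p 8.84e-07) and 10.2-fold in knockout (3.35, SE 0.32, adjusted p 4.02e-06). The days were far apart in both genotypes.

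Epha7, best known from the developing nervous system, was at the limit of detection at day 0. The WT libraries measured 0.280, 0.212 and 0 CPM from 16 counts in all, and the knockout libraries 0.409, 0.454 and 0.530 CPM from 46 counts. At day 7 it measured 10.6, 8.62 and 7.78 CPM in WT and 9.34, 8.75 and 7.39 CPM in knockout. No WT day 0 library reached the 0.337 CPM of the filter on low counts, so the gene entered the test through its other groups. The log2 change was 5.75 in WT (SE 0.53, edgeR adjusted p 2.56e-06) and 4.17 in knockout (SE 0.47, adjusted p 1.33e-05), and the first of these rests on a day 0 level that includes a library at 0.

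Epha4, known for axon repulsion, had a level in WT that was low at day 0 and high at day 7, whereas in knockout it was high on both days. WT libraries measured 9.63, 9.93 and 8.44 CPM at day 0 and 44.1, 56.3 and 47.7 CPM at day 7. Knockout libraries measured 50.2, 34.7 and 32.0 CPM at day 0 and 49.7, 53.5 and 46.0 CPM at day 7. The days did not overlap in WT and overlapped in knockout, where replicate 1 at day 0 was within the day 7 range. As a description, the log2 change over 7 days was 2.40 in WT (SE 0.18) and 0.35 in knockout (SE 0.17).

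**Figure D1:**
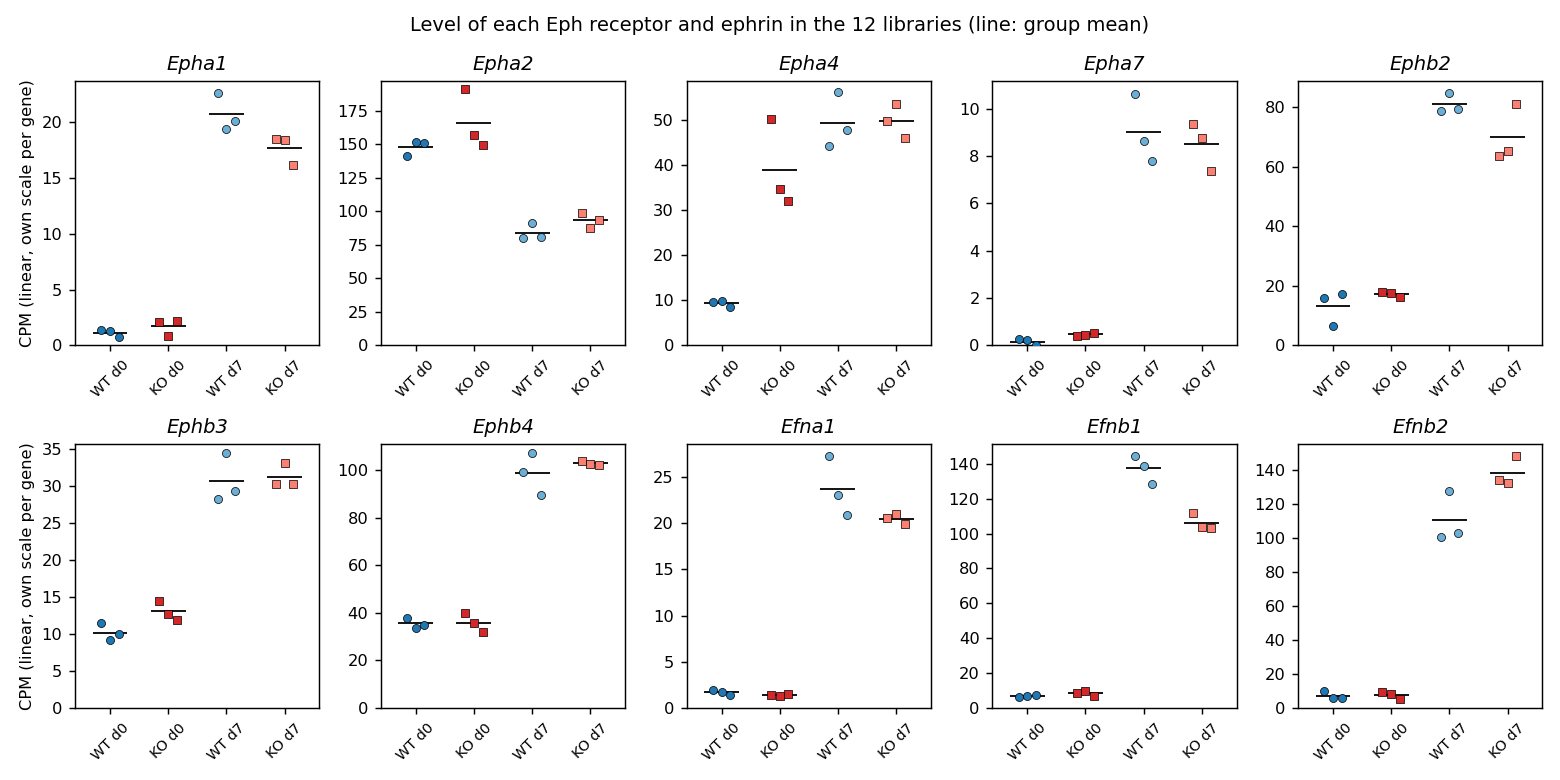
Level of each of the 10 genes in CPM (linear axis, a scale of its own for each gene) in the 3 libraries of WT and knockout (KO) at day 0 (d0) and day 7 (d7), with a line at the group mean. Epha2 is the gene with lower values at day 7, and Epha4 is high in knockout at day 0, between 32.0 and 50.2 CPM, where WT lies between 8.44 and 9.93 CPM.

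All 3 B-type receptors rose in both genotypes. Ephb2 and Ephb3, which guide axons and position cells in the intestinal crypt, rose from similar levels. Ephb2 measured 15.8, 6.36 and 17.2 CPM in WT at day 0 and 78.9, 84.9 and 79.4 CPM at day 7. In knockout it measured 17.9, 17.4 and 16.1 CPM and then 63.5, 65.3 and 81.2 CPM. In these gene counts WT replicate 2 at day 0 was well under the other 5 day 0 libraries. Reads assigned to genome 1, 1 of the parent genomes, did not show it low among the WT libraries. They numbered 243, 406 and 268 for Ephb2 in WT at day 0, of 5486093, 9389072 and 6266680 over all genes. In replicate 2 the main transcript, Ephb2-202, held 256 counts, or 94.8% of the gene's counts. The gene thus had fewer counts than genome 1 reads in that library, and its 6.36 CPM may be too low. The cause was not tested. The log2 change was 2.63 in WT (SE 0.29, edgeR adjusted p 1.18e-05) and 2.03 in knockout (SE 0.29, adjusted p 8.08e-05).

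Ephb3 measured 11.4, 9.16 and 10.01 CPM in WT at day 0 and 28.2, 34.4 and 29.3 CPM at day 7. The knockout libraries measured 14.49, 12.7 and 11.9 CPM and then 30.3, 33.0 and 30.3 CPM. It rose 3.01-fold in WT and 2.39-fold in knockout (log2 changes 1.59 and 1.26, SE 0.13 each, edgeR adjusted p 9.97e-07 and 6.31e-06).

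Ephb4, the receptor of veins and the main partner of ephrin-B2, measured 37.9, 33.7 and 35.0 CPM in WT at day 0 and 99.3, 107 and 89.7 CPM at day 7. Its knockout values were 39.9, 35.9 and 31.9 CPM and then 103.7, 102.7 and 102.0 CPM. The genotypes overlapped at day 0 and at day 7. Its rise was 2.78-fold in WT and 2.87-fold in knockout (log2 changes 1.47 and 1.52, SE 0.10 each, edgeR adjusted p 2.06e-07 and 1.70e-07).

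All 3 ephrins rose in both genotypes, from low levels at day 0. Efna1, a lipid-anchored ligand that binds Epha2, measured 1.96, 1.77 and 1.42 CPM in WT at day 0 and 27.3, 23.0 and 20.9 CPM at day 7. In knockout it measured 1.40, 1.325 and 1.54 CPM and then 20.6, 21.0 and 19.9 CPM. Its log2 change was 3.79 in WT (SE 0.16, edgeR adjusted p 5.85e-09) and 3.84 in knockout (SE 0.17, adjusted p 6.10e-09).

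Efnb1, the X-linked ligand whose mutation in humans causes craniofrontonasal syndrome, measured 6.15, 7.16 and 7.33 CPM in WT at day 0 and 145, 139 and 128 CPM at day 7. Its knockout values were 8.80, 9.65 and 6.65 CPM and then 111.9, 103.6 and 103.4 CPM. The knockout libraries at day 7 all lay under the WT libraries. The rise was 19.9-fold in WT (log2 change 4.32, SE 0.14, edgeR adjusted p 8.41e-10) and 12.7-fold in knockout (3.67, SE 0.14, adjusted p 2.40e-09).

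Efnb2, a marker of arteries that is required for vessel remodelling, measured 9.83, 5.67 and 6.22 CPM in WT at day 0 and 101, 128 and 103 CPM at day 7. In knockout it measured 9.31, 8.44 and 5.45 CPM and then 134, 132 and 148 CPM. Here the knockout libraries at day 7 all lay above the WT libraries. The rise was 15.3-fold in WT (log2 change 3.94, SE 0.25, edgeR adjusted p 1.06e-07) and 17.9-fold in knockout (4.17, SE 0.25, adjusted p 7.89e-08).

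Counted together, 8 of the 9 genes tested rose and 1 fell in each genotype. Of all 19235 genes tested, 32.9% rose and 32.1% fell in WT (65.1% in either direction), and 31.1% rose and 32.3% fell in knockout (63.4% in either direction). In each genotype the days stood apart without overlap in all 9, with 8 higher and 1 lower at day 7, where the shares over all genes were 36.4% and 35.6% in WT and 34.6% and 34.9% in knockout. The median log2 change of the 9 genes was 3.79 in WT and 3.35 in knockout, against 0.01 and -0.02 over all genes tested. The WT and knockout changes are separate comparisons, each against its own day 0 libraries.

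**Figure D2:**
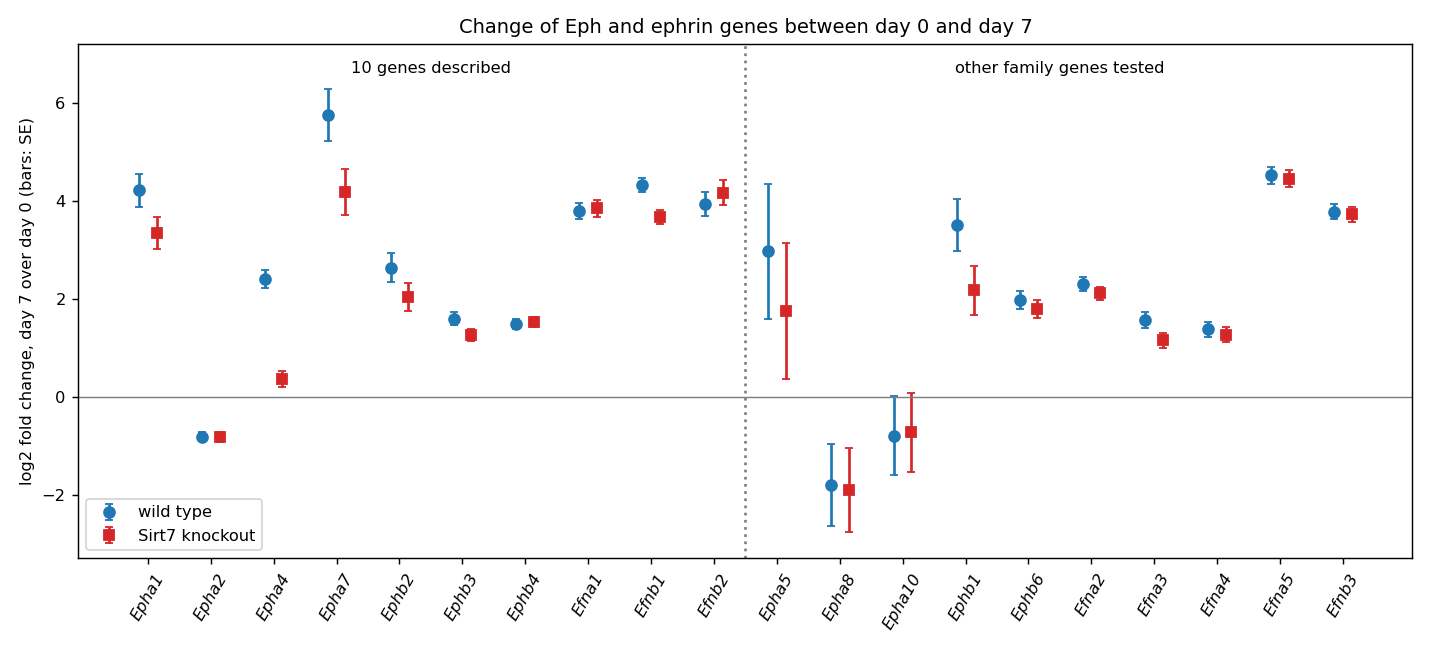
Fitted log2 fold change of day 7 over day 0 (points, with bars of 1 SE) in WT and knockout for the 10 genes described and for 10 other family genes that passed the filter on low counts. Epha2 lies below 0 in both genotypes, at -0.82 and -0.83, and Epha4 lies at 2.40 in WT and 0.35 in knockout.

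The table held 12 other family genes, of which 10 were tested. In each genotype 7 of them rose and none fell: the B-type receptors Ephb1 and Ephb6 (the latter without kinase activity), the lipid-anchored ligands Efna2, Efna3, Efna4 and Efna5, and the ligand Efnb3. Ephb1 passed the filter on low counts through its day 7 libraries, with a mean of 0.176 CPM in WT and 0.338 CPM in knockout at day 0, so the filter set its direction. Efna5, a ligand known from the mapping of retinal axons, rose the furthest in both genotypes, from 1.35 to 30.8 CPM on average in WT (log2 change 4.52, SE 0.17, edgeR adjusted p 2.02e-09) and from 1.31 to 28.8 CPM in knockout (4.45, SE 0.17, adjusted p 2.43e-09). Efnb3 rose from 3.75 to 51.2 CPM in WT (3.78, SE 0.15) and from 3.53 to 46.6 CPM in knockout (3.72, SE 0.15). The receptors Epha5, Epha8 and Epha10 had means of at most 0.622 CPM in every group and were not called by edgeR. Their edgeR log2 changes in WT were 2.96 (SE 1.37), -1.81 (SE 0.84) and -0.80 (SE 0.81). DESeq2 called Epha8 lower at day 7 in each genotype (adjusted p 0.0396 in WT and 0.0390 in knockout). No day 7 library of Epha8 was above 0.185 CPM in WT or 0.258 CPM in knockout, under the 0.337 CPM of the filter. Epha8 therefore entered the test through day 0, and the filter set its direction. Epha3 was untested with means of at most 0.122 CPM, and Epha6 had no count in any library.

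Set beside each other per kilobase of exons, a receptor led among these 10 genes at day 0 and a ligand at day 7. Epha2 led at day 0 with 31.6 CPM per kb in WT and 35.5 in knockout, followed by Ephb4 with 7.66 and 7.73. Epha7 was lowest in all 4 groups, at 0.0166 and 0.0470 CPM per kb at day 0 and at 0.912 and 0.859 at day 7. At day 7 Efnb1 led with 39.8 CPM per kb in WT and 30.8 in knockout, and Ephb4 came next with 21.3 and 22.2. The second place depended on the length used: per kb of the longest transcript, Efnb2 had 23.1 in WT and 28.9 in knockout at day 7 and Ephb4 22.8 and 23.7, with Efnb1 still first. Outside the 10, Efna4 was at 41.6 CPM per kb in WT and 38.4 in knockout at day 7. Neighbours in the order overlapped at several places. In WT at day 0 this was so for Epha4 with Efnb2, Efnb2 with Ephb2, and Ephb2 with Efna1. In WT at day 7 each gene overlapped the next in the run from Ephb4 over Epha2 and Efnb2 to Efna1, and in the run from Ephb2 over Epha4 and Epha1 to Ephb3. In knockout, overlapping neighbours were Efnb1 with Ephb3 and the run of Ephb2, Efnb2 and Efna1 at day 0, and at day 7 Efnb2 with Epha2, Epha4 with Ephb2, and Ephb3 with Epha1.

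The summed level of the 3 ephrins went from 3.99 ± 0.260 (SD, n = 3) to 68.9 ± 4.52 CPM per kb in WT and from 4.33 ± 0.663 to 62.2 ± 1.22 in knockout. The sum of the 7 receptors went from 43.3 ± 0.578 to 62.6 ± 4.21 CPM per kb in WT and from 51.9 ± 7.15 to 63.9 ± 0.865 in knockout. Epha2 made up 73.0% of the receptor sum in WT at day 0 and 28.7% at day 7, and 68.4% and then 31.2% in knockout. Over all 8 ephrins of the family the sum was 31.0 ± 3.66 CPM per kb in WT at day 0. Most of it was Efna4 with 16.0, Efna2 with 5.17 and Efna3 with 4.30, so the ligands described here were a small share of the ligand RNA at day 0. The sum of all 8 was 172 ± 10.9 in WT at day 7, and went from 32.8 ± 2.56 to 158 ± 5.66 in knockout. In proportion it rose less than the sum of the 3 ephrins.

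**Figure D3:**
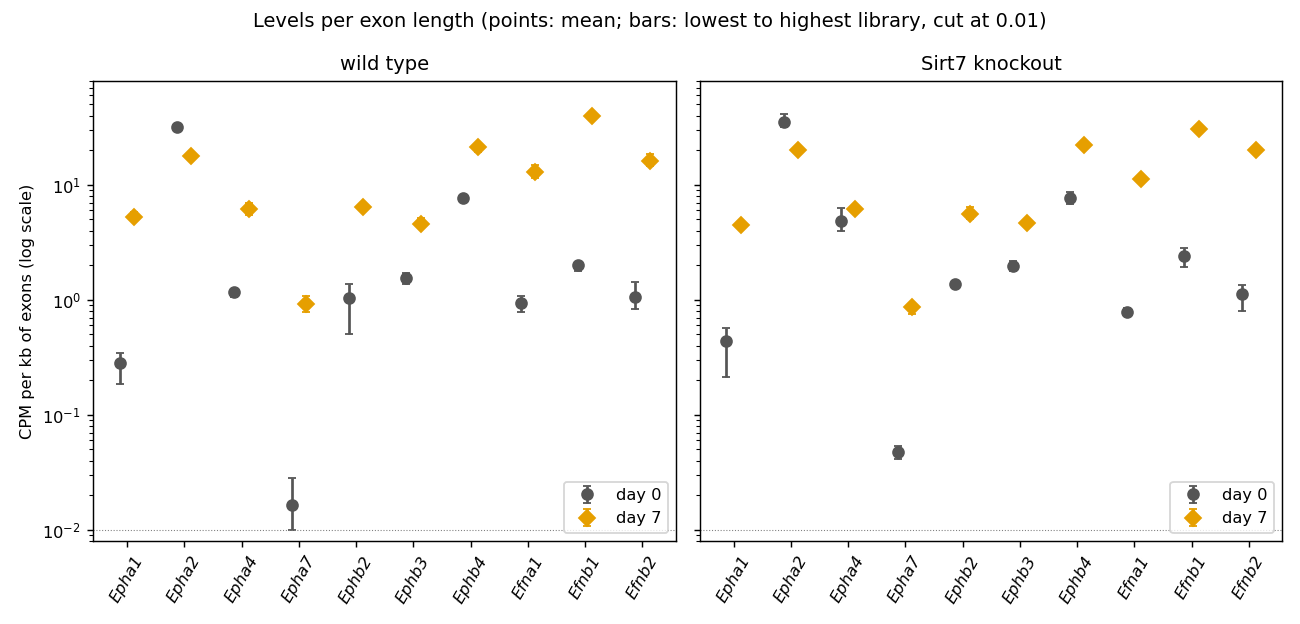
Mean level of each gene in CPM per kb of exons (log axis) at day 0 and day 7 in WT and knockout, with bars from the lowest to the highest of 3 libraries, cut at 0.01. Epha2 is highest at day 0, at 31.6 in WT and 35.5 in knockout, and Efnb1 is highest at day 7, at 39.8 and 30.8.

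A list of 47 genes of Eph and ephrin signalling (exchange factors, adaptors, kinases, phosphatases, proteases and PDZ proteins) was tested in the same fit, and all 47 passed the filter. In WT 34 rose, 7 fell and 6 were not called, and in knockout 32 rose, 7 fell and 8 were not called, beside 32.9% rising and 32.1% falling over all genes tested in WT and 31.1% and 32.3% in knockout. The median log2 change was 1.10 in WT and 1.08 in knockout, against 0.01 and -0.02 over all genes tested. The furthest rises in WT were those of Vav3 (log2 change 4.51, SE 0.93), Grip1 (4.16, SE 0.26) and Kalrn (4.08, SE 0.15). Vav3 and Kalrn are exchange factors, and Grip1 is a PDZ scaffold that binds ephrin-B tails. In knockout they were Vav3 (5.40, SE 1.02), Kalrn (3.82, SE 0.15) and Arhgef5 (3.70, SE 0.15), an exchange factor of the ephexin group. The furthest falls were those of Ptpro, Grb10 and Arhgef15 in both genotypes, at log2 changes of -5.57 (SE 1.10), -2.67 (SE 0.23) and -2.45 (SE 0.29) in WT and -4.76 (SE 1.02), -3.35 (SE 0.24) and -2.12 (SE 0.29) in knockout. Ptpro is a receptor phosphatase known to remove phosphate from Eph receptors, Grb10 an adaptor and Arhgef15 another ephexin. Vav3 at day 0 and Ptpro at day 7 had means of at most 0.149 CPM, under the 0.337 CPM of the filter. Vav3 therefore entered the test through day 7 and Ptpro through day 0. The filter set the direction of their changes, which are in the counts above, and the size is poorly set.

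At day 7 none of the 10 genes was called between genotypes by edgeR's quasi-likelihood test, 1 had an unadjusted p under 0.05, and DESeq2 also called none. Of all genes tested 5 were called, or 0.0260%, with 1 higher (0.00520%) and 4 lower (0.0208%) in knockout. Efnb1 was the gene with that unadjusted p: its log2 difference, knockout minus WT, was -0.37 (SE 0.12, edgeR adjusted p 0.480), from means of 137 ± 8.26 and 106 ± 4.83 CPM (SD, n = 3). Efnb2 lay the other way, with a log2 difference of 0.32 (SE 0.22, adjusted p 0.760), from 111 ± 14.8 to 138 ± 8.77 CPM. Epha4 had a difference of 0.01 (SE 0.17, adjusted p 1.00). The other 7 differences lay between -0.23 and 0.15, with SE between 0.10 and 0.39. Knockout libraries were all higher for 1 of the 10 genes (Efnb2) and all lower for 2 (Epha1 and Efnb1), and over all genes tested the groups stood apart in this way for 6.70% and 12.8%. None of the 10 other family genes tested and none of the 47 signalling genes was called at day 7 by edgeR or by DESeq2, and 0 and 1 of them had an unadjusted p under 0.05.

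The change over 7 days was also compared between genotypes, as knockout change minus WT change. None of the 9 genes tested was called by edgeR or by DESeq2, and 2 had an unadjusted p under 0.05, while 5 of all genes tested were called, or 0.0260%. Those 2 were Efnb1, with a difference of -0.65 (SE 0.18, edgeR adjusted p 0.453), and Epha7, with -1.57 (SE 0.68, adjusted p 0.716), whose WT day 0 level rests on 16 counts. Epha1 had -0.87 (SE 0.44, adjusted p 0.759) and Ephb2 -0.61 (SE 0.39, adjusted p 0.840). Single day 0 libraries set some of these sizes: without WT replicate 2 at day 0 the difference of Ephb2 was -0.27, and that of Epha7 was -1.04 without WT replicate 3. The remaining 5 lay between -0.33 and 0.23. For Epha4, described only, the difference was -2.05 (SE 0.24).

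At day 0, the comparison that led to this family, the values are given as a description. Epha4 was higher in knockout by 2.06 on the log2 scale (SE 0.17), 4.17-fold. Epha7 differed by 1.49 (SE 0.56) near the limit of detection and Ephb3 by 0.36 (SE 0.13). Every knockout library lay above every WT library for Epha4, whose level in this comparison chose the family. Of the other 9 genes this was so for 2, Epha7 and Ephb3, and every knockout library lay below for 0. Over all genes tested the shares were 8.48% and 7.22%. The other 7 genes overlapped between genotypes, with log2 differences from -0.27 for Efna1 to 0.64 for Epha1. Of all genes tested 25 were called at day 0 by edgeR, or 0.130%, with 17 higher (0.0884%) and 8 lower (0.0416%) in knockout, and 431 by DESeq2. Knockout replicate 1 held the highest day 0 value of Epha2, Epha4, Ephb2, Ephb3 and Ephb4. Without it the log2 difference of Epha4 was 1.83, the lowest value among the 12 fits that each left out 1 library.

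The patterns across the 12 libraries that were most like that of Epha4 were sought among all genes tested, by the mean absolute difference of centred log2 CPM. They were those of Pogz (0.256), Slc25a51 (0.287), Fbxl17 (0.310), the predicted gene Gm14603 (0.314) and Smim15 (0.319). Pogz, the nearest, averaged 14.1 CPM in WT and 39.3 CPM in knockout at day 0 and 45.9 and 53.5 CPM at day 7. Slc25a51, which encodes a mitochondrial NAD carrier, averaged 5.39 and 18.2 CPM and then 29.3 and 33.7 CPM. Gm14603 was under 0.4 CPM on average in every group. Likeness to a chosen pattern carries no test.

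Reads that cover a site where the parent strains differ had been divided into genome 1 and genome 2, and the table does not say which strain is which. Of the 10 genes, 5 had reads of both genomes (Epha2, Epha4, Ephb4, Efnb1 and Efnb2). Epha1, Epha7, Ephb3 and Efna1 had no genome 2 read among 1123, 849, 3926 and 2010 allele-resolved reads, which allows a genome 2 share of up to 0.267%, 0.353%, 0.0764% and 0.149%, and Ephb2 had 6 of 12722. These limits cover counting error only. The same was seen for 41.5% of the 12575 autosomal genes with at least 240 such reads (a genome 2 share under 1%). Among the genes within 2 Mb it was seen for 7 of 7 near Epha1, 34 of 41 near Ephb3, 87 of 97 near Efna1 and 22 of 43 near Ephb2. It was not seen for the 1 such gene near Epha7, whose genome 2 share was 6.76%. Near the genes with reads of both genomes it was seen for 13 of 38 (Epha2), 2 of 9 (Epha4), 1 of 5 (Efnb2), none of 77 (Ephb4) and none of 14 (Efnb1). The allelic balance of Epha1, Epha7, Ephb2, Ephb3 and Efna1 was not compared.

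Efnb1 went from reads of both genomes to reads of nearly genome 2 alone. Its genome 2 share was 70.9%, 68.3% and 62.7% in the WT libraries at day 0 and 98.9%, 99.7% and 100% at day 7. In knockout it was 65.8%, 62.9% and 57.7% and then 99.6%, 100% and 98.2%. Every day 7 library lay above every day 0 library. The log2 ratio of genome 2 to genome 1 rose by 6.77 in WT (SE 1.05, edgeR adjusted p 0.00491) and by 6.67 in knockout (SE 1.07, adjusted p 0.00635). Of all genes tested for allelic balance, 3.62% were called in WT and 2.80% in knockout. An exact two-sided permutation test of the shares gave p = 0.1 in each genotype, which is the smallest that 3 against 3 libraries allow.

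By level, genome 2 reads of Efnb1 went from 1.56 ± 0.244 to 39.4 ± 2.40 CPM in WT and from 1.42 ± 0.314 to 29.3 ± 1.75 CPM in knockout (SD, n = 3). Genome 1 reads went from 0.776 ± 0.261 to 0.199 ± 0.238 CPM in WT and from 0.851 ± 0.0487 to 0.228 ± 0.310 CPM in knockout. The day 0 shares rest on 220 and 216 allele-resolved reads over 3 libraries, and those of day 7 on 5449 and 2932. Other X-linked genes moved the same way. Their median genome 2 share was 53.7% over 369 genes in WT at day 0 and 97.4% over 366 genes at day 7, and 52.6% and then 98.3% in knockout. Of those genes 95 of 366 in WT and 142 of 375 in knockout had a higher share than Efnb1 at day 7. Between genotypes at day 7 the allelic ratio of Efnb1 was not called (log2 difference -0.43, SE 1.14, edgeR adjusted p 1.00).

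Epha2, Ephb4 and Efnb2 had no called change of allelic balance between days by edgeR in either genotype, and Epha2 in WT had an unadjusted p under 0.05 (log2 ratio 0.41, SE 0.18, edgeR adjusted p 0.412). The genome 2 share of Epha2 was 39.7% ± 2.18 (SD, n = 3) in WT at day 0 and 46.6% ± 4.86 at day 7, and 41.8% ± 0.316 and 47.6% ± 1.20 in knockout. Epha4, described only between days, had 72.9% ± 9.04 and 61.0% ± 3.52 in WT and 63.8% ± 3.17 and 54.5% ± 5.17 in knockout. Reads of both its alleles were present in every group, with genome 2 under 50% in a single library, at 48.9%. Ephb4 had 78.4% ± 0.207 and 75.3% ± 1.78 in WT, and in knockout at day 0 it had 56.9%, 87.6% and 56.9%, with replicate 2 far from the other two. Efnb2 stayed between 67.7% and 82.7% in all 12 libraries. At day 7 none of the 5 genes was called between genotypes, against 0.0363% of all genes tested.

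**Figure D4:**
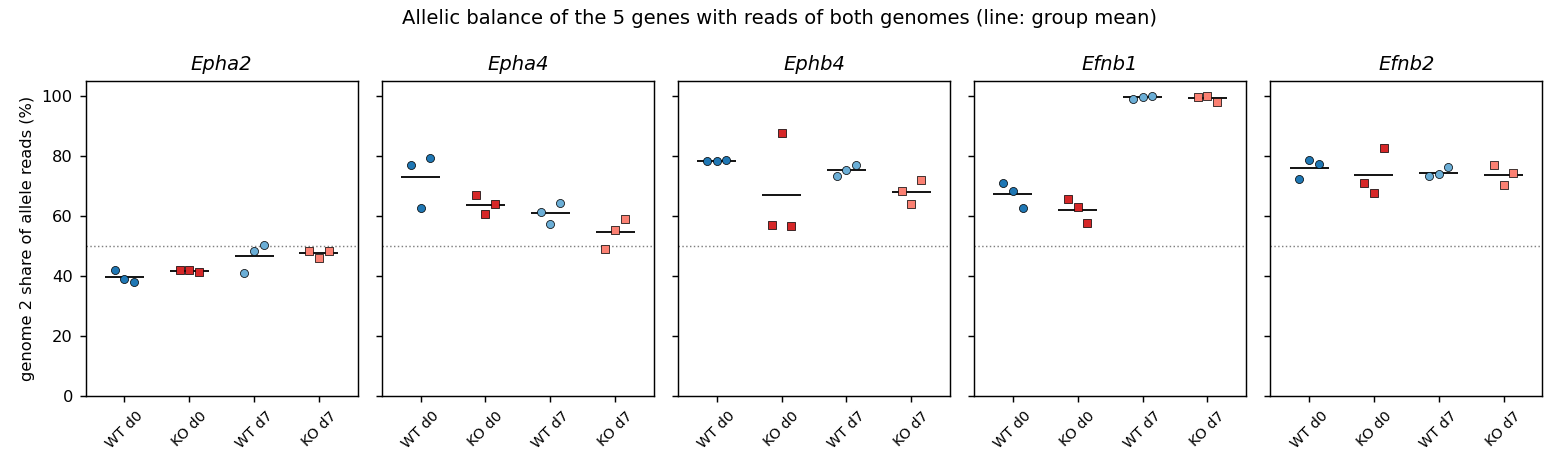
Genome 2 reads as a percent of genome 1 and genome 2 reads (axis from 0) in each library for the 5 genes with reads of both genomes; the dotted line is at 50% and short lines are group means. Efnb1 lies between 57.7% and 70.9% at day 0 and between 98.2% and 100% at day 7, while the other 4 genes have reads of both genomes in all groups.

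The transcript table divides each gene's counts among annotated isoforms, as StringTie estimates them. Where isoforms differ by few bases, the division depends on few reads and the assigned isoform can change as a whole from library to library. Of 27 transcripts of the 10 genes that passed the filter, 5 belong to Epha4 and are not tested. Of the other 22, 9 rose, 1 fell and 12 were not called in WT, and 8 rose, 1 fell and 13 were not called in knockout. In each genotype 3 of those that rose had at most 1 count in any day 0 library of that genotype. They entered the test through day 7, so they could only rise there. These were Ephb2-201, Ephb2-203 and Ephb4-204 in WT, and Efna1-201, Ephb2-201 and Ephb4-204 in knockout. Of all 45908 transcripts tested 22.8% were called in WT and 21.0% in knockout.

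The main isoforms of Ephb4 differ in coding sequence. Exon 7 of Ephb4-203 starts 27 bases before that of Ephb4-201, at an upstream splice acceptor, and these bases (chr5:137362363-137362389, GRCm38, plus strand) add 9 codons to the reading frame. The lines below give the junction with 24 bases on each side, from the GENCODE vM21 transcripts, with the added bases in capitals.
Ephb4-203: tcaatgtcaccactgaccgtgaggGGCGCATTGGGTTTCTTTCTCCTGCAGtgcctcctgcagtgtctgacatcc
Ephb4-201: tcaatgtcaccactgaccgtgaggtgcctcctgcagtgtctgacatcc
Of the counts of both isoforms, Ephb4-203 held 3.26%, 8.17% and 0% in the WT libraries at day 0 and 87.2%, 89.6% and 87.7% at day 7. In knockout it held 94.1%, 1.69% and 9.76% at day 0 and 93.0%, 93.8% and 95.8% at day 7. At day 0 knockout replicate 1 resembled the day 7 libraries, and the other 5 were under 10%. The exact two-sided permutation p of the day difference was 0.1 in WT, the smallest possible, and 0.3 in knockout, where the day 0 mean was 35.2% with replicate 1 and 5.72% without it. As a transcript, Ephb4-203 rose in WT (log2 change 6.06, SE 1.79, edgeR adjusted p 0.0365) and Ephb4-201 was not called (-1.50, SE 0.71, adjusted p 0.161). Neither was called in knockout, where the log2 change was 2.85 (SE 1.54, edgeR adjusted p 0.227) for Ephb4-203 and -1.85 (SE 0.72, adjusted p 0.102) for Ephb4-201. Ephb4-201 has 71 other bases, none of them coding, that Ephb4-203 lacks.

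Knockout replicate 1 at day 0 stood apart in Epha4 as well. Epha4-201 and Epha4-205 differ by 13 bases at their ends and in no coding base, and Epha4-205 is annotated as a target of nonsense-mediated decay. Of the counts of both, Epha4-205 held 0% in 5 of the 6 day 0 libraries and 99.9% in knockout replicate 1. At day 7 it held 82.5%, 99.04% and 87.4% in WT and 99.9%, 78.5% and 99.9% in knockout. The gene level of Epha4 given above includes both, and the log2 change of their summed counts over 7 days was 2.47 in WT and 0.24 in knockout.

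Efna1-201 and Efna1-202 start 1497 bases apart and share 3 exons, and 189 coding bases of Efna1-201 are absent from Efna1-202. Efna1-201 starts right after the downstream window shown above, and the start of Efna1-202 lies inside the upstream window. Efna1-202 held all of their counts in 5 of the 6 day 0 libraries, which had 35 to 75 counts each, and WT replicate 3, with 41 counts, had Efna1-201 alone. At day 7 Efna1-201 held 100% in 5 libraries and 87.0% in knockout replicate 1, from 540 to 1551 counts each. The exact two-sided permutation p of the day difference was 0.4 in WT and 0.1 in knockout. In knockout Efna1-201 had no count at day 0 and 690, 591 and 592 counts at day 7, and entered the test through day 7. In WT it was not called (log2 change 5.67, SE 1.89, edgeR adjusted p 0.0696).

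Ephb2-201 lacks 6101 bases of Ephb2-202, none of them coding, and has 3 coding bases of its own. It held at most 0.389% of their counts at day 0. At day 7 it held 7.60%, 14.9% and 7.01% in WT and 2.65%, 59.1% and 52.4% in knockout, where replicate 1 was far below the other two. Its day 7 counts were 235, 779 and 122 in WT and 57, 1130 and 1316 in knockout, from at most 1 count per library at day 0, and it entered the test through day 7. The log2 change of Ephb2-202, the longer form, was 2.42 in WT (SE 0.38, edgeR adjusted p 0.00152) and 1.38 in knockout (SE 0.37, adjusted p 0.0251). Efnb1, Efnb2, Epha1 and Epha2 were each carried by 1 isoform, which held at least 88.2% of the gene's counts in all 12 libraries.

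**Figure D5:**
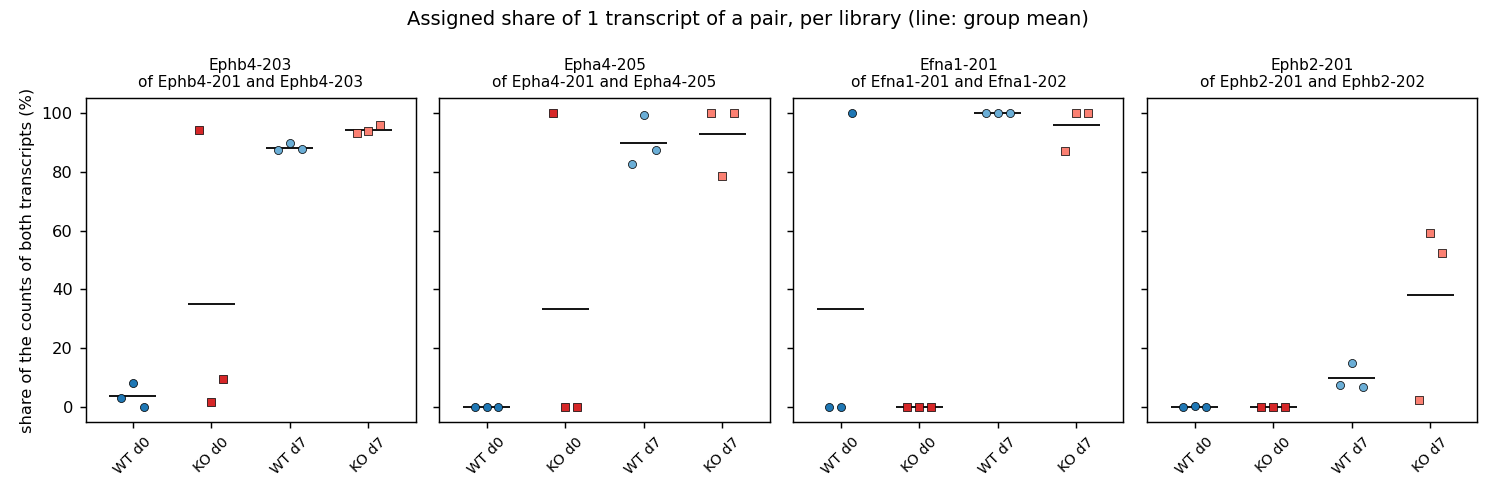
Share of 1 transcript in the counts of a pair (percent) in each library, for pairs of Ephb4, Epha4, Efna1 and Ephb2, with lines at the group means. Knockout replicate 1 at day 0 lies at 94.1% for Ephb4-203 and at 99.9% for Epha4-205, where the other 5 day 0 libraries lie at or below 9.76% and at 0%.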

How the data were processed

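PolyA RNA was extracted with TRIzol per the labels' protocols, and 12 libraries were sequenced. The deposited expected counts per gene and transcript were made by the authors from StringTie estimates, and hold whole numbers as deposited. The submitters' processing notes name the aligner HISAT2 2.1.0, the assembler StringTie 1.3.3 and the read tools Trimmomatic 0.36, FastQC 0.11.3 and SAMtools 0.1.19. Builds mm10 and GRCm38 and DESeq2 1.32.0 are also named there. The deposited allele tables give counts of reads assigned by the authors to genome 1 or genome 2. Use of strand in counting is not given in the sources used here, so reads of overlapping antisense genes cannot be told apart.

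Genes were tested with edgeR 4.0.16 in R 4.3.3 (filterByExpr with a minimum count of 10, TMM scaling, a quasi-likelihood fit of all 12 libraries with 1 coefficient per group). P-values were adjusted by the Benjamini-Hochberg method over all 19235 genes tested and called at 0.05. The SE of a log2 change is its size divided by the square root of the F statistic. DESeq2 1.42.0 was an alternative. The fits were tested on simulated data. Allelic balance was fitted with edgeR with each library as a block, with a minimum of 20 reads of either genome in each library compared. Epha4 was tested at day 7 only. Exon lengths and transcript sequences came from GENCODE vM21 (55141 of 55487 gene identifiers and 141374 of 142699 transcript identifiers matched), and promoters from RefSeq.

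The 10 genes, the family and signalling lists and the markers were chosen with earlier results of these data known. All 10 genes were named, with the other family genes that passed the filter, the 3 signalling genes with the largest called change in each direction and genotype, and the 5 genes most like Epha4. No libraries repeated each other: counts of replicate pairs differed by 23.6 to 59.5 times sampling noise (chi-square per degree of freedom).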

Additional observations from a re-analysis of the deposited data

How the results depend on the processing

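The counts of called genes among the 10 described (9 and 9 between days, 0 at day 7 and 0 in the difference of changes) were the same with size factors (RLE) in place of TMM, with DESeq2, without a filter on low counts, with a replicate block, without any 1 library and, except for the difference of changes, which needs all groups, with only the 2 groups compared. Of the 10 other family genes tested, DESeq2 called 8 in place of 7 in each genotype. Numbers of all genes called were less stable. At day 7 between genotypes there were 5, against 159 with DESeq2, 9 with only the 2 groups, 2 with the replicate block and 5 to 13 without 1 library, the highest without knockout day 7 replicate 1. For the difference of changes there were 5, against 145 with DESeq2, 8 without a filter, 0 with the replicate block and 0 to 15 without 1 library, with 0 without knockout day 7 replicate 3 and 15 without knockout day 0 replicate 1 or 2. The cause was not tested.

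The replicate numbers did not pair the libraries (correlations of same-numbered deviations from -0.0243 to 0.0613). With the replicate block the transcripts called went from 10 to 7 in WT and from 9 to 6 in knockout. Those lost were Ephb4-203 (adjusted p 0.0978), Ephb4-204 and Ephb2-203 in WT, and Efna1-201, Ephb2-202 (adjusted p 0.123) and Ephb4-204 in knockout.

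Differences near 0 changed sign. At day 7, Epha4 was at -0.015 without a filter and at -0.066 to 0.11 without 1 library, and Epha7 ran from -0.18 to 0.048, Ephb3 from -0.032 to 0.12, Ephb4 from -0.012 to 0.12 and the allelic ratio of Efnb1 from -1.49 to 1.15. In the difference of changes, Epha2 was at 0.0024 with RLE, 0.0025 with DESeq2 and -0.087 to 0.13 without 1 library, and Ephb4 ran from -0.036 to 0.16, Efna1 from -0.047 to 0.16 and Efnb2 from -0.054 to 0.41. Without 1 library, Ephb2 ran from -0.86 to -0.27, Epha7 from -2.02 to -1.04 and Epha1 from -1.19 to -0.64 there.

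By exact permutation of shares, 0 genes in place of 1 changed allelic balance in each genotype, because 3 against 3 libraries reach 0.1 at best. Of the 40 levels, 2 moved by over 1 SD on raw library totals and 29 with the length of the longest transcript, which shifts every group of a gene alike and puts Efnb2 before Ephb4 at day 7. Without knockout day 0 replicate 1, chosen after seeing the data, the Ephb4-203 share was 5.72% in place of 35.2%. Low depth limits Epha7 at day 0 and the day 0 allele shares of Efnb1.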
